A study of Mus musculus with 405 samples.

Results

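Neurexins, neuroligins and the adhesion molecules named with them are described here as 9 genes: Nrxn2, Nrxn3, Nlgn1, Nlgn2, Nlgn3, Cntnap2, Cntn4, Ctnna2 and Lrrtm1. The rule that found them uses symbols alone and no measured value, and it was applied to the 13304 genes of a table of a chemical screen and the 23893 genes of a table of counts for the fungicide pyraclostrobin. The set itself was put together with earlier results of these data known. All 9 were present in both tables, and all 9 passed the filter on low counts.

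Neurexins are receptors in the presynaptic membrane that reach across the synaptic cleft and bind partners on the postsynaptic side. Neuroligins are the best known of these partners: neuroligin 1 is found mainly at excitatory synapses, neuroligin 2 at inhibitory synapses, and neuroligin 3 at both. LRRTM1, a leucine-rich repeat protein of excitatory synapses, binds neurexins as well. CNTNAP2 (Caspr2) is a neurexin-like protein of the axon that works with contactins, contactin 4 is an adhesion molecule of growing axons anchored to the membrane by a lipid, and α-N-catenin, the product of Ctnna2, links neuronal cadherins to actin. Several of these genes are known for variants found in people with autism, and several are among the longest genes of the genome.

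The cultures came from the cortex of embryos at embryonic day 15, from C57BL/6J dams and CAST/EiJ males, so that every group was of the same hybrid strain (CAST x C57BL6). All had received an inhibitor of mitosis on day 3 in vitro, and on day 7 in vitro they were exposed for 24 h to a chemical or to vehicle (DMSO), after which polyadenylated RNA was sequenced. In the screen table there were 49 vehicle libraries, 32 libraries with topotecan at 0.3 μM, and 1 library each with camptothecin at 0.3 μM and irinotecan at 10 μM, all of which inhibit topoisomerase 1, and libraries of 294 other chemicals, most with 1 library each. The count table held 4 libraries with pyraclostrobin at 0.1 μM and 4 with vehicle, with totals between 2409623 and 7833440 counts. Nothing in the labels says whether libraries of a group came from separate dissections. Where libraries are compared with vehicle, p-values therefore measure the spread between cultures that may share one.

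The vehicle libraries of the count table held RNA of several cell types. The 6 neuronal markers (Tubb3, Map2, Rbfox3, Snap25, Syt1 and Stmn2) summed to between 7904 and 8668 CPM (counts scaled to a common library total), the 5 astrocyte markers to between 572 and 886 CPM, and the 6 microglial markers to between 8.30 and 14.4 CPM. The endothelial marker Cldn5 had no count in any of the 8 libraries. In such bulk samples fewer cells of a type and less RNA per cell cannot be told apart. The 4 libraries of each group of the count table are called A to D here, in the order of the library numbers in its column headers, which both groups share. The vehicle and the pyraclostrobin library A stood apart from the others of their group: between them and the other libraries of a group the counts differed by chi-square values of 7.79 to 25.97 per degree of freedom, against 1.82 to 2.98 between the remaining libraries. The pyraclostrobin library A is also the pyraclostrobin library of the screen.

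The 9 genes differ widely in length. In the mm9 annotation, Cntnap2 covers chr6:45010060-47251368 on the plus strand, 2241 kb, Nrxn3 covers chr12:89961320-91573375 on the plus strand, 1612 kb, and Ctnna2 covers chr6:76831631-77929693 on the minus strand, 1098 kb. Cntn4 (chr6:105627654-106649304, plus strand) spans 1022 kb and Nlgn1 (chr3:25330733-26032656, minus strand) 701.9 kb. The other 4 are shorter, with 125.4 kb for Nrxn2 (chr19:6418731-6544169, plus strand), 30.1 kb for Nlgn3 (chrX:98491178-98521302, plus strand), 15.1 kb for Lrrtm1 (chr6:77192683-77207785, plus strand) and 14.7 kb for Nlgn2 (chr11:69636624-69651286, minus strand). Exons make up 0.320% of the span of Cntnap2 and 39.5% of that of Nlgn2.

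Several members share their locus with another gene. Lrrtm1 lies whole within an intron of 455 kb of Ctnna2 (chr6:77093938-77548739) and is read from the opposite strand, with no exonic base in common. Of the exonic bases of Nrxn2, 669 are shared with the antisense gene Slc22a12, and 749 of those of Nlgn3 are shared with Med12 on the same strand. Whether the counting used the strand is not given in the sources used here, so that reads on shared bases cannot be assigned to a gene with certainty.

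Some of the long genes also have short transcripts. The coding transcripts of Nrxn3 span from 11.5 kb to 1540 kb, those of Cntnap2 from 55.2 kb to 2241 kb and those of Ctnna2 from 381 kb to 1098 kb, and a count per gene adds them together. Neurexin genes are known for an upstream promoter that gives the long α form and an internal one that gives the short β form. RefSeq sequences around transcription starts (GRCm38.p6, 250 bases before to 50 after the start) could be matched for 7 of the 9 members. The first and the last listed start of Nrxn3 and of Cntnap2 are printed because they lie far apart in genes that are each counted as 1, and those of Ctnna2 and Lrrtm1 because one gene lies within the other. They run 5′ to 3′ on the gene's strand, and capitals mark every CG dinucleotide.

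Nrxn3, first start, chr12:88794254-88794553: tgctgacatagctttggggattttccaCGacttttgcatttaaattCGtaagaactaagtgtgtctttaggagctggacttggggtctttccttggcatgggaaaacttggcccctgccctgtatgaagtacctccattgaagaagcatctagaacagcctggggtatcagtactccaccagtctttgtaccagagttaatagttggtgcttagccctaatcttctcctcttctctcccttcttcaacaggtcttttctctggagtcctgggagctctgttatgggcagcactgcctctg

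Nrxn3, last start, chr12:89812233-89812532: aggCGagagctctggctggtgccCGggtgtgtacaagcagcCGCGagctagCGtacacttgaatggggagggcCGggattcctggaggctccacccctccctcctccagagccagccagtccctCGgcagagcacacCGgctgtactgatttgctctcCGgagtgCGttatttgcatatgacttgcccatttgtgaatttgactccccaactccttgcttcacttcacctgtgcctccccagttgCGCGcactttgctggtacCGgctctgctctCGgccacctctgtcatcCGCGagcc

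Cntnap2, first start, chr6:45059811-45060110: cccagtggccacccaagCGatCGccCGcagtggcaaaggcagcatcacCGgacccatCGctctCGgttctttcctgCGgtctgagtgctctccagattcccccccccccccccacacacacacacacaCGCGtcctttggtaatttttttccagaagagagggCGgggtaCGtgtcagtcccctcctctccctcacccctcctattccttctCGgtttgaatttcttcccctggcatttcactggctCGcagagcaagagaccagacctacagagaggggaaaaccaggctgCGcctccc

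Cntnap2, last start, chr6:47244146-47244445: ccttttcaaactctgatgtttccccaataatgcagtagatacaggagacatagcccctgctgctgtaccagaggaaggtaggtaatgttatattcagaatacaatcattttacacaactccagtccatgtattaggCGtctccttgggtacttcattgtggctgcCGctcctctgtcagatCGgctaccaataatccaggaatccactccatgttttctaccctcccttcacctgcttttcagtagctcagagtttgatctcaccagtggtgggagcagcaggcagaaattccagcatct

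Ctnna2, chr6:77979618-77979917, minus strand: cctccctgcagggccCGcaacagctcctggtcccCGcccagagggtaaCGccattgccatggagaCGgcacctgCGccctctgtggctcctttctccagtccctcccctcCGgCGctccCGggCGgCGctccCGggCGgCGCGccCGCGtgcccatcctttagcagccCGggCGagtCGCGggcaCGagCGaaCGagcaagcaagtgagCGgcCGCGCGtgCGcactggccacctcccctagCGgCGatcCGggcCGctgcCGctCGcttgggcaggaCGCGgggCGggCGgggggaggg

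Lrrtm1, chr6:77242227-77242526: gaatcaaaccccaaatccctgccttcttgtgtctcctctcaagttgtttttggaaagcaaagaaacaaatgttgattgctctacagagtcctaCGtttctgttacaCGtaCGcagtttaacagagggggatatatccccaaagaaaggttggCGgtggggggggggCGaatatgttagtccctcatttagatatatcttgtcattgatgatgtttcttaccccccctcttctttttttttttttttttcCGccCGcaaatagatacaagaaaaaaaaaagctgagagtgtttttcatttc

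The last start of Nrxn3 lies 1018 kb downstream of the first in GRCm38.p6, and the last start of Cntnap2 lies 2184 kb downstream of the first. CG, which reads the same on both strands, occurred 38 times in the window of Ctnna2 and 7 times in that of Lrrtm1. As many as 38 were held by 4.95% of all 32851 listed windows of this length, and as many as 7 by 52.1%. In Nrxn3 the last start had 16 CG and the first 2, whereas in Cntnap2 the first had 14 and the last 3. The letters TATAAA, searched on both strands, were found in 13.6% of all windows and in none of the 12 windows of the members.

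Levels of the members can be compared only per length. In the 4 vehicle libraries of the count table, Nlgn2 had the highest level at 95.03 ± 9.67 RPKM (SD, n = 4), followed by Nrxn2 at 69.5 ± 8.09, Lrrtm1 at 44.0 ± 2.37, Ctnna2 at 33.6 ± 1.01 and Nlgn1 at 24.6 ± 4.61 RPKM. Lower levels were measured for Cntnap2 (20.3 ± 4.95 RPKM), Nrxn3 (14.5 ± 5.05 RPKM), Nlgn3 (10.2 ± 3.11 RPKM) and Cntn4 (2.41 ± 0.622 RPKM). The first 4 of this order did not overlap with their neighbours in single libraries, whereas the ranges of Nlgn1 and Cntnap2, of Cntnap2 and Nrxn3, and of Nrxn3 and Nlgn3 did. Cntn4 did not overlap with Nlgn3 and had 38 to 175 counts in the vehicle libraries.

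Topotecan was compared with vehicle because inhibition of topoisomerase 1 is known to lower the RNA of long genes. Of the 9 members, 6 were lower with topotecan, 2 were higher and Nlgn2 did not pass limma's test at an adjusted p of 0.05. Of all 13304 genes 20.9% were lower and 24.9% higher. The log2 differences had a median of -0.45 over the members and of 0.028 over all genes. The screen table gives deviations from a centre and no levels, so the values below are log2 deviations.

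Among the neurexins, Nrxn3 lay between -0.58 and 1.01 in the vehicle libraries (median -0.03) and between -3.16 and -1.33 in the topotecan libraries (median -2.25). The groups did not overlap, and Nrxn3 was 4.51-fold lower with topotecan (log2 difference -2.17, standard error 0.083, adjusted p = 1.63e-38, limma). Nrxn2 lay between -0.05 and 0.29 in vehicle (median 0.11) and between -0.51 and 0.19 with topotecan (median -0.03). These groups overlapped, with 13 of 32 topotecan libraries below every vehicle library, and the log2 difference was -0.17 (standard error 0.027, adjusted p = 1.87e-07).

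The neuroligins differed among themselves. Nlgn1 ranged from -0.41 to 0.64 in vehicle (median 0.04) and from -2.29 to -0.62 with topotecan (median -1.30), with no overlap, and was 2.56-fold lower (log2 difference -1.35, standard error 0.064, adjusted p = 3.03e-32). Nlgn2 ranged from -0.26 to 0.22 in vehicle (median 0.03) and from -0.26 to 0.16 with topotecan (median 0.05), and its difference was 0.016 (standard error 0.023, adjusted p = 0.609). Nlgn3 ranged from -0.32 to 0.37 in vehicle (median 0.00) and from -0.32 to 0.45 with topotecan (median 0.19), and rose by 0.16 (standard error 0.034, adjusted p = 4.22e-05). Its groups overlapped over almost the whole range, with 2 of 32 topotecan libraries above all vehicle libraries.

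Lrrtm1, the other postsynaptic partner, moved in the opposite direction from Nlgn1. It ranged from -0.39 to 0.39 in vehicle (median -0.03) and from -0.08 to 0.76 with topotecan (median 0.45). It was 1.396-fold higher with topotecan (log2 difference 0.48, standard error 0.039, adjusted p = 6.01e-19), and 20 of 32 topotecan libraries lay above every vehicle library.

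The axonal genes and the catenin fell to different degrees. Cntn4 ranged from -0.92 to 1.03 in vehicle (median 0.08) and from -3.36 to -0.65 with topotecan (median -1.77), with 31 of 32 topotecan libraries below every vehicle library, and was 3.64-fold lower (log2 difference -1.86, standard error 0.10, adjusted p = 4.85e-29). Ctnna2 ranged from -0.34 to 1.12 in vehicle (median 0.02) and from -3.53 to -1.15 with topotecan (median -2.42). Its groups did not overlap, and at 5.56-fold it had the largest fall of the 9 (log2 difference -2.47, standard error 0.10, adjusted p = 6.89e-36). Cntnap2, the longest member, ranged from -0.25 to 0.60 in vehicle (median 0.03) and from -0.79 to 0.01 with topotecan (median -0.39), and 28 of 32 topotecan libraries lay below every vehicle library. It was 1.37-fold lower (log2 difference -0.45, standard error 0.042, adjusted p = 4.96e-16). Groups without overlap and lower values with topotecan, as in Nrxn3, Nlgn1 and Ctnna2, were found for 1.01% of all genes.

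**Figure D1:**
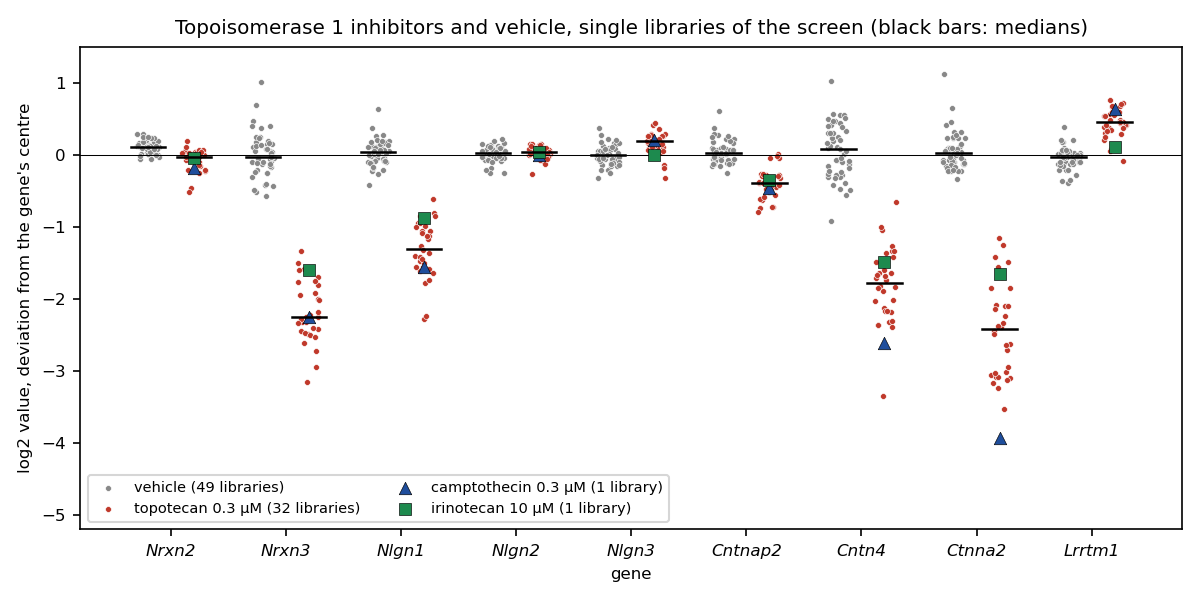
Log2 values of the 9 members (y axis, deviation from each gene's centre) in single libraries with vehicle (grey), topotecan at 0.3 μM (red), camptothecin at 0.3 μM (blue triangle) and irinotecan at 10 μM (green square), with black bars at the medians of vehicle and topotecan. The topotecan libraries of Nrxn3, Nlgn1 and Ctnna2 all lie below the vehicle libraries, those of Nlgn2 overlap with vehicle, and 20 of the 32 of Lrrtm1 lie above it.

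Permutation tests of the 9 members (two-sided, 100000 resamples) gave p = 0.5 for Nlgn2 and p = 2e-05, the smallest they can give, for each of the others. Markers of other cells moved with topotecan too. All 6 neuronal markers were lower (median log2 difference -0.29), all 3 inhibitory neuron markers were lower (median -0.50), all 5 astrocyte markers were lower (median -0.50) and all 3 excitatory neuron markers were higher (median 0.29). Their part in the members' differences was not tested.

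Camptothecin, from which topotecan and irinotecan are derived, was used at the same concentration as topotecan. Its single library lay within the range of the 32 topotecan libraries for 8 members. For Nrxn3 its value was -2.25, below 15 and above 17 of the topotecan libraries, and for Lrrtm1 it was 0.64, above 26 of them. For Ctnna2 it was -3.93, below all 32, and for Cntn4 -2.61, with 1 topotecan library lower still. Irinotecan was used at 10 μM, and its values of -1.60 for Nrxn3, -0.88 for Nlgn1, -1.49 for Cntn4, -1.66 for Ctnna2 and 0.11 for Lrrtm1 all lay inside the topotecan ranges. Concentrations differ, so no comparison is made with it, and with 1 library each neither compound has a replicate check. For Cntnap2 the values were -0.46 with camptothecin and -0.34 with irinotecan. Below every vehicle library lay 6 of the 9 members with camptothecin, as did 8.64% of all genes, and 5 with irinotecan, as did 3.05% of all genes.

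Gene length was set beside these differences for the 12711 genes that could be matched to the annotation. The 43 genes over 1000 kb had a median log2 difference of -1.67, and 90.7% of them were called lower. Among them, 2 genes fell more than Ctnna2, 8 more than Nrxn3 and 13 more than Cntn4. Cntnap2 stood at the other end, with 37 of the 43 lower than it and 5 higher. Of the 136 genes between 500 and 1000 kb, with a median of -1.003, 33 fell more than Nlgn1. Genes between 100 and 500 kb had a median of -0.21, close to the -0.17 of Nrxn2. Those between 10 and 100 kb had a median of 0.038, and of these 7562 genes 174 had a higher difference than Lrrtm1, 1638 a higher one than Nlgn3 and 4282 a higher one than Nlgn2.

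**Figure D2:**
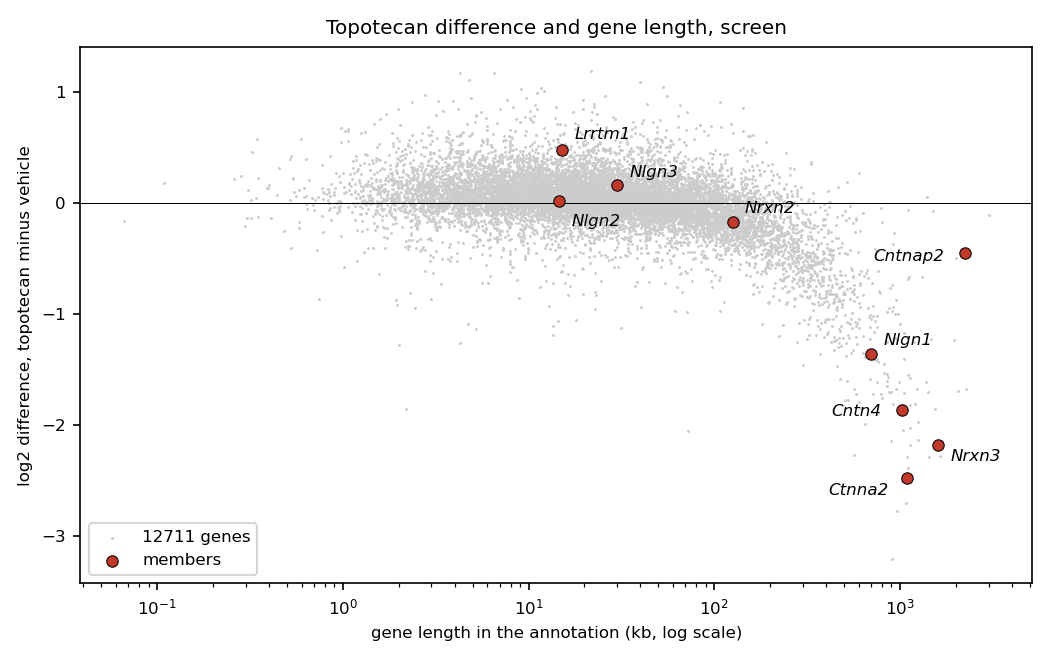
Log2 difference between topotecan and vehicle (y axis) against gene length in kb on a log scale (x axis) for 12711 genes (grey) and the 9 members (red, named). Members over 500 kb lie between -2.47 and -0.45, with Cntnap2 highest although it is the longest, and the shorter members lie between -0.17 and 0.48.

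Ctnna2 and the gene inside its intron went in opposite directions with topotecan. Over the 32 topotecan libraries the values of Ctnna2 and Lrrtm1 were negatively related, with Pearson's r = -0.62 (permutation p = 0.00011, adjusted p = 0.00132) and Spearman's rho = -0.53 (permutation p = 0.00199, adjusted p = 0.0199), adjusted over the 36 pairs of members. Without the 2 libraries farthest from the median of Ctnna2, r was -0.51. The pair had r = -0.24 over the 49 vehicle libraries and r = 0.052 over the 294 chemicals that do not inhibit topoisomerase 1. Of the other 35 pairs over the topotecan libraries, 32 had a positive r, and the highest were 0.79 for Nrxn2 with Nlgn1 and 0.69 for Nrxn3 with Nlgn1, which were 0.61 and 0.66 without the 2 farthest libraries. Without those libraries 28 of the 35 were positive, and Nrxn2 with Lrrtm1 went from 0.23 to -0.40 and Nlgn1 with Lrrtm1 from 0.15 to -0.38, so that negative values were not particular to Ctnna2 with Lrrtm1. Batches of culture and sequencing had been removed from the table and are not named in the labels, so no value within batches can be given.

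**Figure D3:**
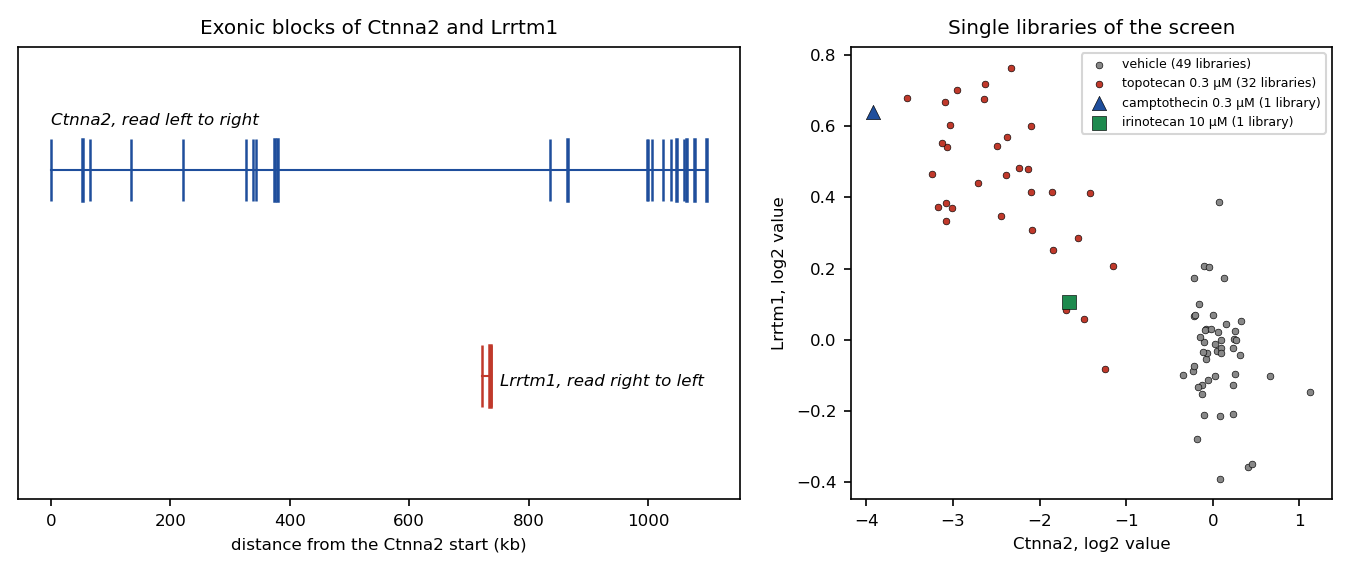
The left panel maps the exonic blocks of Ctnna2 and Lrrtm1 by distance from the Ctnna2 start in kb (x axis), drawn at least a line wide; Lrrtm1 lies between 722 and 737 kb, inside an intron and read in the other direction. The right panel plots Lrrtm1 (y axis) against Ctnna2 (x axis), both as log2 values, in single libraries with vehicle, topotecan, camptothecin and irinotecan, and the topotecan libraries with the lowest Ctnna2 tend to have the higher Lrrtm1 (r = -0.62 over 32 libraries).

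Inhibitors of complexes I and III of the mitochondrial respiratory chain were compared with the other chemicals because they are the other class of chemicals of interest here. The class was taken from known targets and may not hold every chemical of the screen that inhibits these complexes. It held 4 inhibitors of complex I (rotenone, pyridaben, fenpyroximate and tebufenpyrad) and 7 of complex III (pyraclostrobin, trifloxystrobin, azoxystrobin, fluoxastrobin, famoxadone, fenamidone and cyazofamid). The 283 other chemicals include the complex II inhibitors boscalid, carboxin and flutolanil. Repeated libraries of a chemical were reduced to their median, so p-values here measure the spread between chemicals. limma's test takes 1 spread for both groups, set mostly by the 283 others. SDs over inhibitors and others were 0.57 and 0.19 for Nrxn3, 0.26 and 0.11 for Nrxn2, and 0.30 and 0.15 for Lrrtm1. They were 0.15 and 0.17 for Nlgn1 and 0.13 and 0.15 for Nlgn3. Where the inhibitors spread more, the standard errors and p-values below are too small for the class. Of the 9 members, 6 were lower and none was higher by limma's test, while 16% of all genes were lower and 8.85% higher. The members had a median log2 difference of -0.21, against -0.0026 over all genes. The 11 chemicals had been used at concentrations from 0.01 to 10 μM, so their values stand side by side and are not ranked by potency.

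Both neurexins were lower. Nrxn3 ranged from -1.40 to 0.19 over the 11 inhibitors (median -0.36) and from -0.61 to 0.60 over the other chemicals (median -0.03). Its log2 difference was -0.49 (standard error 0.065, adjusted p = 3.19e-11), and 8 of 11 inhibitors lay below the median of the others. The groups overlapped, since azoxystrobin, tebufenpyrad and fluoxastrobin were above that median. Nrxn2 ranged from -0.70 to 0.12 over the inhibitors (median -0.24) and from -0.40 to 0.48 over the others (median 0.05), and differed by -0.29 (standard error 0.037, adjusted p = 3.31e-12).

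On the postsynaptic side Nlgn2 and Lrrtm1 were lower, and Nlgn1 and Nlgn3 did not pass. Lrrtm1 ranged from -0.98 to 0.06 over the inhibitors (median -0.38) and from -0.67 to 0.30 over the others (median -0.04), with 10 of 11 inhibitors below the median of the others and a difference of -0.31 (standard error 0.049, adjusted p = 1.47e-08). Nlgn2, at inhibitory synapses, ranged from -0.49 to 0.03 against -0.39 to 0.29 (medians -0.15 and 0.01), a difference of -0.21 (standard error 0.029, adjusted p = 2.04e-10). For Nlgn1 the difference was 0.0077 (standard error 0.053, adjusted p = 0.949), with 5 of 11 inhibitors below the median of the others. Nlgn3 differed by -0.066 (standard error 0.045, adjusted p = 0.310).

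Of the axonal genes, Cntnap2 differed by -0.15 (standard error 0.042, adjusted p = 0.00236) and Cntn4 by -0.26 (standard error 0.092, adjusted p = 0.0219). The call for Cntn4 rested on single chemicals, with adjusted p = 0.155 without trifloxystrobin, 0.0853 without fenamidone and 0.0789 without fenpyroximate. Ctnna2, which fell most with topotecan, had a difference of -0.070 here (standard error 0.058, adjusted p = 0.422). Split by target, Nrxn3 differed by -0.61 with the 7 complex III inhibitors (adjusted p = 3.09e-11) and by -0.29 with the 4 complex I inhibitors (adjusted p = 0.0440), and Lrrtm1 by -0.29 (adjusted p = 4.27e-05) and -0.36 (adjusted p = 3.56e-04). The calls for Nlgn2 and Cntnap2 did not hold for complex I alone (adjusted p = 0.0771 and 0.141). That for Cntn4 held neither for complex I (0.232) nor for complex III alone (0.166), and the difference between the 2 targets was not tested.

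Single chemicals of the class were far apart. Nrxn3 was lowest with pyraclostrobin at 0.1 μM (-1.40), trifloxystrobin at 10 μM (-1.26), fenamidone at 10 μM (-1.17), fenpyroximate at 0.1 μM (-0.84) and famoxadone at 10 μM (-0.63), and these were the 5 lowest of all 294 chemicals that do not inhibit topoisomerase 1. Chemicals with 2 libraries show how far this repeats: Nrxn3 was -1.18 and -1.16 in the fenamidone libraries, -0.67 and -0.58 with famoxadone, -0.53 and -0.05 with rotenone at 0.01 μM, and -0.06 and 0.44 with azoxystrobin at 0.1 μM. Among the same 294 chemicals, Lrrtm1 was lowest with fenpyroximate (-0.98), and Cntn4 with trifloxystrobin (-0.97).

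Pyraclostrobin, trifloxystrobin, azoxystrobin and fluoxastrobin are strobilurins, fungicides of 1 structural family that bind complex III. At the matched concentration of 0.1 μM, Nrxn3 was -1.40 in the pyraclostrobin library and 0.19 as the median of 2 azoxystrobin libraries, Lrrtm1 was -0.68 and -0.06, Nrxn2 was -0.43 and 0.01, and Nlgn2 was -0.42 and -0.08. With 1 pyraclostrobin library in this table the differences have no test. Trifloxystrobin at 10 μM, with -0.70 for Nrxn2, and fluoxastrobin at 1 μM, with 0.06 for Nrxn3 and -0.29 for Lrrtm1, were used at other concentrations. The inhibitors of complex II, boscalid, carboxin and flutolanil, each at 10 μM, gave -0.17, -0.04 and 0.12 for Nrxn3 and 0.15, -0.01 and 0.01 for Lrrtm1, all within the range of vehicle. Cntnap2 was -0.29 in the single boscalid library, below the lowest vehicle library (-0.25).

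**Figure D4:**
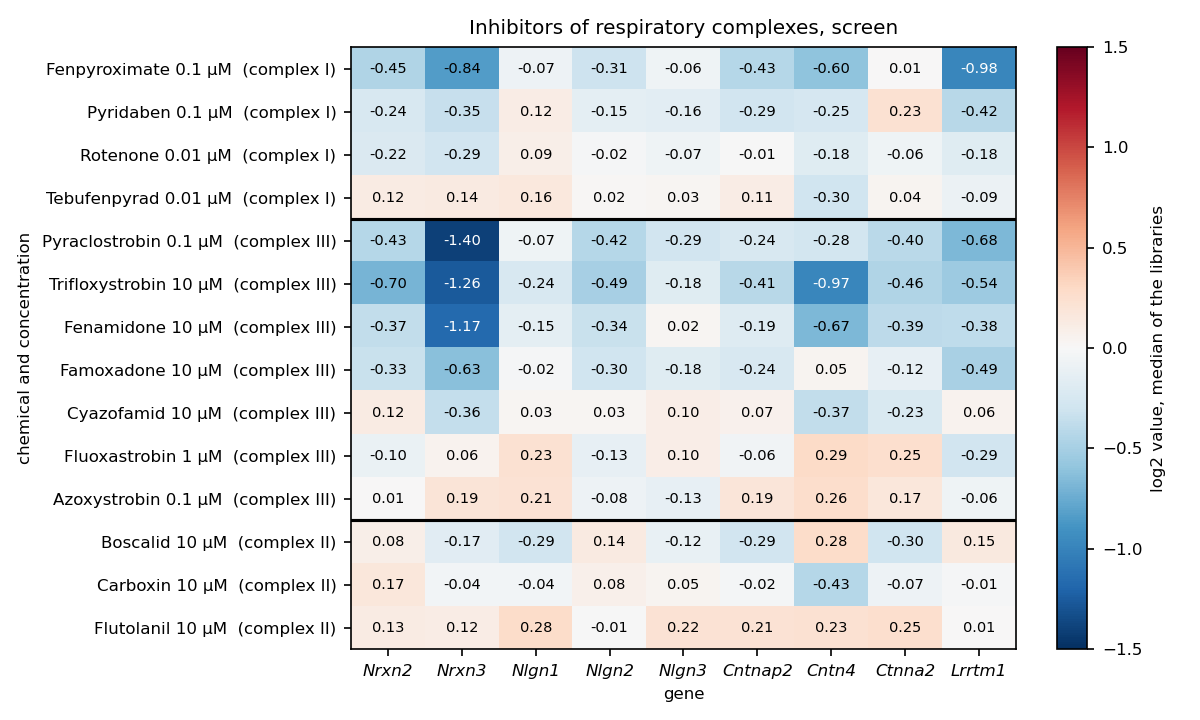
Log2 values of the 9 members (columns) with 14 inhibitors of respiratory complexes I, III and II (rows, with concentration), as the median of the libraries of each chemical, blue for lower and red for higher. Nrxn3 ranges from -1.40 with pyraclostrobin to 0.19 with azoxystrobin, both at 0.1 μM.

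The 6 neuronal markers were all lower with the complex I and III inhibitors (median log2 difference -0.32), and so were the 3 inhibitory neuron markers (median -0.72). All 6 markers of mural cells or fibroblasts were higher (median 0.93), and 3 of 5 astrocyte markers were higher (median of the 5, 0.37). Their part in the members' differences was not tested.

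The count table gives the same question for pyraclostrobin with replicates. All 9 members had a lower estimate with pyraclostrobin, 6 of them passed the test of edgeR at an adjusted p of 0.05, and none was higher, whereas 16.4% of all 12324 genes tested were lower and 18.5% higher. The median log2 difference was -0.70 over the members and -0.0021 over all genes. In Nrxn2, Nlgn2 and Lrrtm1 every pyraclostrobin library lay below every vehicle library, which was so for 16.9% of all genes. Values are given in CPM after scaling, in the order of the libraries A, B, C and D.

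Nrxn2 had 804, 957, 1032 and 1049 CPM with vehicle and 411, 561, 461 and 539 CPM with pyraclostrobin, 48.7% lower (log2 difference -0.96, standard error 0.13, adjusted p = 3.02e-04). Nrxn3 had 87.7, 213, 206 and 225 CPM with vehicle and 28.3, 82.3, 60.5 and 93.2 CPM with pyraclostrobin. The lowest vehicle library, A, lay below the highest pyraclostrobin library, and Nrxn3 was 63.9% lower (log2 difference -1.47, standard error 0.36, adjusted p = 0.00802). It had the largest fall of the members here.

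Of the neuroligins only Nlgn2 passed, with 470, 575, 557 and 597 CPM in vehicle and 241, 378, 353 and 379.1 CPM with pyraclostrobin (log2 difference -0.70, standard error 0.15, adjusted p = 0.00438). Nlgn1 had 77.4, 116, 115 and 121 CPM in vehicle and 96.2, 83.0, 91.3 and 96.8 CPM with pyraclostrobin (log2 difference -0.23, standard error 0.15, adjusted p = 0.269). Nlgn3 had 62.1, 122, 129 and 137 CPM against 75.7, 92.8, 102 and 94.0 CPM (log2 difference -0.31, standard error 0.22, adjusted p = 0.301). In both, the vehicle library A was lower than every other vehicle library and than every pyraclostrobin library. Lrrtm1 had 132, 142, 125.05 and 135 CPM in vehicle and 61.6, 89.8, 89.8 and 83.3 CPM with pyraclostrobin, 39.2% lower (log2 difference -0.72, standard error 0.14, adjusted p = 0.00229).

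Cntnap2 had 92.4, 167, 160 and 163 CPM in vehicle and 83.2, 95.1, 84.5 and 99.9 CPM with pyraclostrobin (log2 difference -0.69, standard error 0.18, adjusted p = 0.0130). Cntn4, at 13.6, 20.2, 22.4 and 26.3 CPM against 9.81, 9.77, 9.89 and 16.6 CPM, differed by -0.86 (standard error 0.26, adjusted p = 0.0227), a call lost without the pyraclostrobin library A (adjusted p = 0.05001), B (0.0539) or C (0.0590) and without the vehicle library C (0.0620) or D (0.0768). Ctnna2 had 231, 242, 236 and 225 CPM in vehicle and 145, 198, 176 and 232 CPM with pyraclostrobin. Its vehicle libraries lay close together while those with pyraclostrobin were spread, with library D inside the vehicle range, and its difference was -0.31 (standard error 0.14, adjusted p = 0.106).

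The 3 calls that were missed depended on single libraries. Without both libraries A, an alternative chosen after seeing the data, all 9 members were called lower, as were 24.9% of all genes, while 25.3% were higher. Nlgn1 then differed by -0.38 (standard error 0.085, adjusted p = 0.00112), Nlgn3 by -0.43 (standard error 0.083, adjusted p = 2.56e-04) and Ctnna2 by -0.21 (standard error 0.086, adjusted p = 0.0485). Without the vehicle library A alone, Nlgn1 and Nlgn3 passed (adjusted p = 0.00923 and 0.00313), and without the pyraclostrobin library D alone Ctnna2 did (log2 difference -0.49, adjusted p = 0.0216). The astrocyte gene Gfap had 146 CPM in the vehicle library A and between 19.4 and 27.6 CPM in the other vehicle libraries, and 677 CPM in the pyraclostrobin library A and 62.7 to 98.8 CPM in the others.

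**Figure D5:**
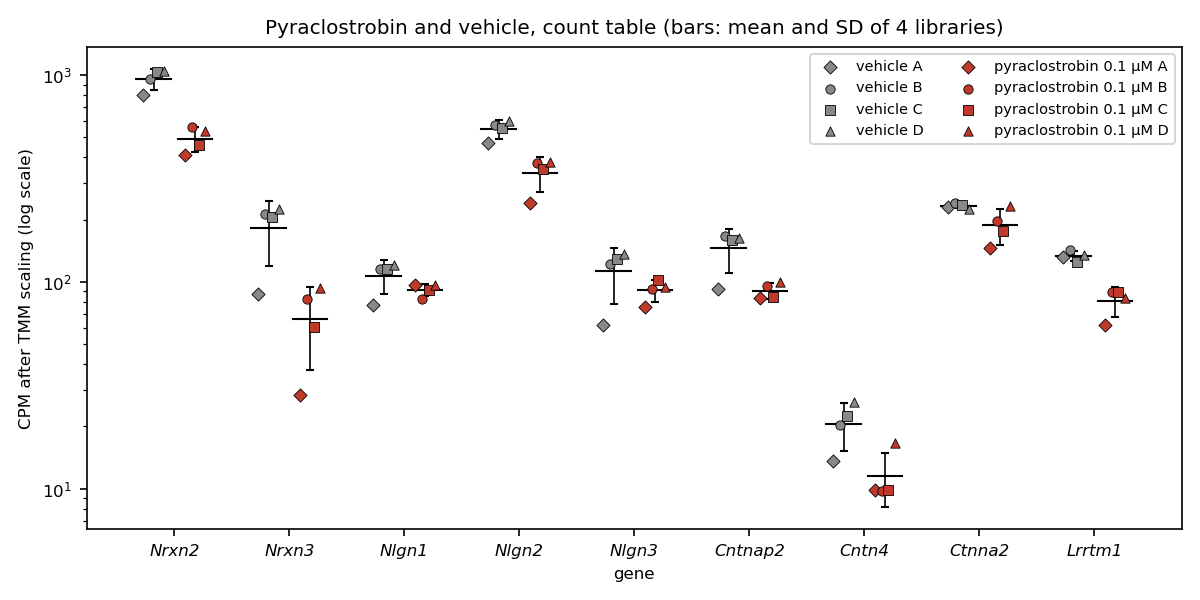
CPM after scaling (y axis, log scale) of the 9 members in the 4 vehicle (grey) and 4 pyraclostrobin (red) libraries of the count table, with a marker shape for each library and black bars for the mean and SD of 4 libraries. Nrxn2, Nlgn2 and Lrrtm1 show groups without overlap, and the vehicle library A (diamond) is the lowest vehicle library for every member but Ctnna2 and Lrrtm1.

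Cell type markers differed between the groups of the count table as well. The 6 neuronal markers summed to 3777 to 4657 CPM with pyraclostrobin against 7904 to 8668 CPM with vehicle, and all 6 were lower (median log2 difference -1.12). The 3 inhibitory neuron markers summed to 73.0 to 403 against 330 to 738 CPM, with 2 of 3 lower, and the 3 excitatory ones to 393 to 494 against 570 to 794 CPM, with 1 of 3 lower. The 6 markers of mural cells or fibroblasts summed to 1244 to 1740 against 82.4 to 188 CPM and all 6 were higher. The 5 astrocyte markers summed to 844 to 2968 against 572 to 886 CPM with 3 of 5 higher, the microglial ones to 37.4 to 49.4 against 8.30 to 14.4 CPM with 3 of the 3 tested higher, and the oligodendrocyte lineage ones to 171 to 298 against 80.6 to 183 CPM. The part of these shifts in the members' differences was not tested.

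A list of 87 further genes of these pathways, in 6 roles, was examined beside the members. It covers presynaptic ligands and relatives of neurexins, other postsynaptic partners, contactins and contactin-associated proteins, catenins, other synaptic adhesion systems, and scaffolds. With topotecan 48 of the 85 genes in the screen table were lower (56.5%) and 14 higher (16.5%), with a median log2 difference of -0.21. Of all genes 20.9% were lower and 24.9% higher with topotecan. By length, 14.7% of genes of 10 to 100 kb were lower, 63.1% of 100 to 500 kb, 93.4% of 500 to 1000 kb and 90.7% over 1000 kb. The counts by role below are to be read beside these shares. With the complex I and III inhibitors 53 were lower (62.4%) and 8 higher (9.41%), with a median of -0.18. With pyraclostrobin, by counts, 44 of the 81 genes tested were lower (54.3%) and 7 higher (8.64%), with a median of -0.53, against 16.4% and 18.5% of all genes. Without both libraries A these were 56 lower and 11 higher of 82, against 24.9% and 25.3% of all genes.

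Contactins and contactin-associated proteins were mostly lower. All of them but Cntn2 and Cntnap1 span over 100 kb, lengths at which most genes were called lower with topotecan. With topotecan 10 of 11 were lower, among them Cntn5 (-2.13, standard error 0.12, adjusted p = 1.97e-28) and Cntnap5a (-1.70), and Cntn2, the contactin of myelinated axons and the partner of CNTNAP2, was the single higher one at 0.57 (standard error 0.049, adjusted p = 1.34e-17). With the complex I and III inhibitors 8 of 11 were lower and none higher, led by Cntn6 (-0.71) and Cntnap4 (-0.55). With pyraclostrobin 8 of 10 were lower and none higher, led by Cntnap4 (-2.03) and Cntn6 (-2.02).

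Neurexophilins are secreted ligands of α-neurexins. Nxph1 fell by 1.46 with topotecan, and Nxph2 and Nxph1 differed by -1.17 and -0.92 with the complex I and III inhibitors and by -2.78 and -2.44 with pyraclostrobin. In this presynaptic group of 8 genes, 4 were lower and 2 higher with topotecan, and 6 were lower and none higher in each of the other comparisons. The role of other postsynaptic partners of neurexins was listed together with Mdga2, whose product binds neuroligins. With topotecan 7 of its 15 genes were lower and 3 higher. With the complex I and III inhibitors 11 of 15 were lower and 2 higher, and with pyraclostrobin 9 of 14 were lower and 3 higher. Among the lower ones, latrophilin 3 (Lphn3) and Mdga2 differed by -1.75 and -1.40 with topotecan. The calsyntenin Clstn3 and Igsf21 differed by -0.47 and -0.36 with the complex I and III inhibitors and by -1.08 and -1.31 with pyraclostrobin.

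Among the catenins more genes were higher than lower. With the complex I and III inhibitors 3 of 5 were higher and none lower, with Ctnna1 (α-E-catenin, the form of epithelial and many other cells) at 0.59 and Ctnnal1 at 0.57, and with pyraclostrobin Ctnna1 rose by 2.55 (standard error 0.31, adjusted p = 1.51e-04) and Ctnnal1 by 2.08, beside the -0.31 of Ctnna2. With topotecan 3 were higher and 1 lower: Ctnnd2, a neuronal δ-catenin, fell by 1.25, and Ctnnd1 was higher by 0.28.

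Of 25 genes of other synaptic adhesion systems, 11 were lower and 4 higher with topotecan, with the receptor phosphatase gene Ptprd (-1.68) and its partner Il1rapl1 (-1.61) lowest. With the complex I and III inhibitors 13 were lower and 2 higher, with Il1rapl1 at -0.57 and Slitrk3 at -0.34, and with pyraclostrobin 10 of 23 were lower and Il1rap alone was higher, at 1.78, with Lrrc4c at -1.06. Of the 21 scaffold genes, 15 were lower and 1 higher with topotecan, led by Dlgap1 (-1.54) and Dlg2 (-1.23), 15 were lower and 1 higher with the complex I and III inhibitors, led by Shank1 (-0.48) and Dlg2 (-0.29), and 11 were lower and 1 higher with pyraclostrobin, led by Shank1 (-1.25) and Lin7b (-0.98). The headers of the count table do not show which vehicle samples it holds, so that it may share a vehicle library with the screen, and pyraclostrobin is among the 11 inhibitors of the class. These comparisons are therefore not independent.

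Over the 294 chemicals that do not inhibit topoisomerase 1, the members mostly stayed within the vehicle range: 114 of 2646 values (4.31%) lay outside it, against 4.73% over all genes. The spread between chemicals was of the size of that between vehicle libraries, with SDs of 0.30 against 0.38 for Cntn4, 0.23 against 0.30 for Nrxn3 and 0.10 against 0.10 for Nlgn2. Nrxn2 was the exception, since 48 chemicals lay below all vehicle libraries, whose range from -0.05 to 0.29 was narrow and whose median of 0.11 lay above that of the chemicals (0.05). For the other members 2 to 12 chemicals lay below it. For Nrxn3 there were 7, of which 5 inhibit complex I or III.

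With 64 of the 294 chemicals at least 1 member lay below all vehicle libraries, and with 21 at least 2 did. Of these 64 chemicals, 48 had Nrxn2 below its narrow vehicle range. How often other sets of 9 genes reach such counts was not computed, so they are not read as a result about the members. At least 4 members were below all vehicle libraries with 7 of the 294 chemicals: trifloxystrobin (7 members), fenpyroximate and pyraclostrobin (5 each), and famoxadone, fenamidone, azinphos-methyl at 10 μM and emamectin benzoate at 1 μM (4 each). Of all genes, 10.8% lay below all vehicle libraries with trifloxystrobin, 11.8% with fenpyroximate, 11.4% with pyraclostrobin, 7.37% with famoxadone, 9.35% with fenamidone, 7.68% with azinphos-methyl and 8.06% with emamectin benzoate. Nlgn1 was lowest with azinphos-methyl (-0.65), Nlgn3 with fosthiazate at 10 μM (-0.66), Cntnap2 with spirodiclofen at 10 μM (-0.45) and Ctnna2 with tribufos at 10 μM (-0.55). These have 1 library each and no replicate check.

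Correlations over these 294 chemicals describe how the members varied together; the chemicals share 1 table and its normalization, and no p-value is given. The 36 pairs had a median r of 0.24, and 35 were positive. The highest were 0.65 for Nrxn2 with Nlgn2, 0.54 for Nrxn2 with Lrrtm1, 0.53 for Nrxn3 with Cntnap2, 0.51 for Nlgn2 with Lrrtm1 and 0.50 for Nrxn2 with Nrxn3. Nrxn2 with Nlgn2 also had the highest r over the 49 vehicle libraries, at 0.63, shared with Nrxn3 and Ctnna2 at 0.63. The gene most like each member was Agap2 for Nrxn2 (r = 0.84), Syt1 for Nrxn3 (0.81), Ywhag for Lrrtm1 (0.65), Grm5 for Nlgn1 (0.66), Cdk5r2 for Nlgn2 (0.65), Negr1 for Ctnna2 (0.61), Fut9 for Cntnap2 (0.60), Grin2b for Nlgn3 (0.55) and Robo2 for Cntn4 (0.43). Nrxn2 exceeded an r of 0.5 with 2.46% of all genes, Nrxn3 with 1.87%, and Cntn4 with none.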

How the data were processed

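Polyadenylated RNA of mouse cortical cultures had been sequenced, and reads had been aligned with TopHat to mm9 and assigned to RefSeq genes, per the submitters' processing notes and the study's methods. The authors deposited the screen as log10 values of RPKM that they had quantile-normalized, centred and corrected for batch, so its values are deviations and were converted to log2. The authors deposited the pyraclostrobin experiment as raw counts, with totals from 2409623 to 7833440. Standard errors from these counts come from the fit of edgeR, which includes an estimate of the spread between libraries.

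The screen was fitted over all 13304 genes with limma 3.58.1 (trend), using chemicals' medians for the complex I and III class. Counts were filtered at 10 counts in 4 libraries and tested with edgeR 4.0.16 (quasi-likelihood, TMM) in R 4.3.3. p-values were Benjamini-Hochberg adjusted over all genes, with a threshold of 0.05. DESeq2 1.42.0 was an alternative, as were other filters, scalings, classes and left-out libraries. RPKM used exonic lengths of the GENCODE annotation of mm9, to which 12711 screen genes (95.5%) were matched. Scripts were tested on simulated data.

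Named are all members, the 3 genes most alike to each by correlation, of which the first is given, and per role up to 2 called genes with the largest difference; not every gene that meets this rule is named. The rule for members used symbols only, but the set and the lists were chosen with earlier results of these data known. A count table of sulforaphane and fenamidone was not used, since 6 of its columns share a name and could not be assigned to samples.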

Additional observations from a re-analysis of the deposited data

Results flagged for a closer look

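Of 27 groups of 4 libraries examined, 7 had a highest or lowest library whose gap to the nearest other exceeded Dixon's 95% critical share of the group's range; chance gives about 1 in 20. In 4 of them the vehicle library A of the count table was the low one, with gaps of 0.907 of the range for Nrxn3, 0.904 for Nlgn1, 0.854 for Nlgn3 and 0.931 for Cntnap2 on the log2 CPM scale. The pyraclostrobin library A was low for Nlgn2 (0.843), and the pyraclostrobin library D was high for Cntn4 (0.976). In the screen, Nlgn1 was -0.42 in 1 of 4 diethyltoluamide libraries and 0.12, 0.12 and 0.14 in the others (0.965).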

How the results depend on the processing

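With topotecan the 40 values of members under alternatives all kept their direction and call. Restricting the test to the 5121 variable genes called 1788 genes and 26 partner genes with topotecan (6090 and 62 over all 13304 genes). With the complex I and III inhibitors it called 684 and 18 (3305 and 61 over all genes). Genes outside the 5121 could not be called in the restricted test, so these counts do not share a base. Other reasons for the lower counts were not tested. Complex I inhibitors alone, which are fewer chemicals, gave 852 genes and 23 partner genes. A threshold of 0.01 gave 2631 genes and 31 partner genes with pyraclostrobin (4301 and 51), and Cntnap2 and Cntn4 then missed it. Nlgn1, uncalled with the complex I and III inhibitors, turned negative with the study's own cluster in place of the known target (-0.095), complex III alone (-0.020), single libraries against vehicle (-0.010), and without azoxystrobin (-0.011), tebufenpyrad (-0.0060), fluoxastrobin (-0.012) or pyridaben (-0.0014), with a range from -0.012 to 0.034 over all left-out chemicals, and Ctnna2 turned positive with complex I alone (0.070); the cause was not tested. Of the members' values in that comparison 149 kept direction and call, 9 lost the call and 8 turned. With pyraclostrobin 113 kept both, 6 gained and 7 lost the call. Leaving out single chemicals gave 2532 to 3591 genes and 48 to 63 partner genes, and leaving out single libraries in the pyraclostrobin comparison gave 3344 to 5905 genes and 38 to 65 partner genes. Without both libraries A there were 6246 and 67, with DESeq2 4525 genes, with RLE size factors 4317 and without the filter 4877. Scaling by the library total moved the vehicle level of Ctnna2 from 234 to 221 CPM and of Lrrtm1 from 134 to 126 CPM. Deviations of same-numbered vehicle and pyraclostrobin libraries correlated at 0.383 (A), 0.114 (B), -0.016 (C) and 0.193 (D). The pyraclostrobin library A correlated at -0.236, -0.270 and -0.324 with the vehicle libraries B, C and D. Both libraries A thus deviated alike, which the main test did not take into account. For B to D the shared numbers were not shown to pair the libraries, since pyraclostrobin B correlated at 0.222 with vehicle D. With the replicate block 4804 genes and 56 partner genes were called, with no member's call changed, and Nrxn3 had an adjusted p of 3.26e-05 (edgeR). The sulforaphane and fenamidone comparison was not run. Depth limits Cntn4 most, with 25 to 175 counts per library.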
